A study of Mus musculus with 12 samples.

Results

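Kbtbd11, Kbtbd12, Klhl24, Klhl31 and Klhl38 encode BTB-Kelch proteins, and all 5 were read in cultured mouse heart muscle cells given PBS or 1 of 3 cytokines. The 5 were picked by symbol from the 22915 genes of the expression table, which holds 48 genes of this family in all. The values that led to the choice were the differences between cytokine and PBS, in which Kbtbd11 was a top rise with every cytokine. For that reason each difference of these 5 genes from PBS is given below as a description, with no p-value, and nothing is read from how many of the 5 passed a threshold there.

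BTB-Kelch proteins work as substrate adaptors of a ubiquitin ligase. The BTB domain docks on the scaffold protein CUL3 and the Kelch repeats hold the protein to be ubiquitinated, so that each family member directs the ligase to its own targets. In striated muscle several members are known for turnover or stabilisation of sarcomere proteins, and mutations in some of them cause nemaline myopathy or cardiomyopathy.

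The cells were primary cardiomyocytes of adult male C57/Bl6 mice aged 12 weeks, kept in normoxia for 24 h. All 4 conditions shared the strain, the serum-free culture and the time, and each had 3 libraries. The control cells received PBS. The others received 25 ng/mL (per the labels) of mouse leukemia inhibitory factor (mLIF), mouse oncostatin M (mOSM) or hlOSM, an engineered mouse oncostatin M that carries a loop of the human protein. In mouse cells mLIF acts through the LIF receptor and mOSM through the OSM receptor, while hlOSM was built to use both, each together with gp130. It is not stated whether the 3 libraries of a condition came from separate cell isolations, so the p-values measure the spread between these libraries, which may be technical. Averaged over the conditions, the 3 replicate numbers were almost identical gene by gene. The replicate number held 1.7% of the within-condition variance, against 25% for a number with no effect. How this arose is not stated. The main fit does not allow for it, so the p-values below are likely too small and the shares of genes called too large. In a fit blocked on the replicate number, 784, 3330 and 4120 genes were called with mLIF, mOSM and hlOSM against PBS. The main fit called 1307, 4120 and 5002. The blocked fit made the same calls for the 5 genes between cytokines.

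The table gave normalized counts, which are not corrected for gene length. Their sums ran from 2745748 to 2911891 per library, and the number of reads behind them is unknown. All 6 cardiomyocyte markers (Myh6, Tnnt2, Actn2, Ryr2, Tnni3 and Pln) were high, with a summed level of 14808 to 16434 in PBS, 12647 to 13999 with mLIF, 11473 to 13344 with mOSM and 11857 to 12258 with hlOSM. Markers of other cell types were present too. The 6 endothelial markers summed to 1045 to 1080 in PBS and to 1279 to 1444 with mOSM, the 7 fibroblast markers to 2023 to 2259 and 2222 to 2621, and the 6 mural cell markers to 950 to 1188 and 660 to 714. The 6 macrophage markers summed to 276 to 297 in PBS and 320 to 363 with mOSM, with C1qa and Cd163 below 10 in every library. Adipoq and Plin1 of the adipocyte list were below 10 in all libraries. Fabp4 of the same list was present at 13 to 42. Its mean fell from 37.3 in PBS to 24.7 (mLIF), 19.3 (mOSM) and 16.3 (hlOSM). The adipocyte list summed to 37 to 43 in PBS and 16 to 26 with mOSM. The lymphocyte list never summed above 6. In such bulk samples fewer cells of a type and less RNA per cell cannot be told apart, and the part of these shifts in the results below was not tested except where a value is given.

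Kbtbd11 (ENSMUSG00000055675) lies on the plus strand of chr8:15011025-15033333 (mm10) and is known from work on fat cell and osteoclast differentiation. It was low in the control cells, at 11, 13 and 4 normalized counts in the 3 PBS libraries. With mLIF it stood at 37, 42 and 56. With mOSM it reached 219, 195 and 289, and with hlOSM 256, 216 and 403.

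These values formed 3 levels. All mLIF libraries were above all PBS libraries and below all libraries of both OSM forms, whereas the mOSM and hlOSM values overlapped. The means were 9.33 ± 4.73 in PBS (SD, n = 3), 45 ± 9.85 with mLIF, 234 ± 48.8 with mOSM and 292 ± 98.5 with hlOSM, which gives ratios to PBS of 4.82, 25.1 and 31.2. On the log2(value + 1) scale the differences from PBS were 2.26, 4.62 and 4.90, each with an SE of 0.27. Among the 13184 genes that passed the filter on low values, these placed Kbtbd11 at rank 8, 3 and 2 from the top. Kbtbd11 itself passed that filter only through the cytokine libraries. PBS replicate 3, the library with 4 counts, set part of the size: without it the differences were 1.81, 4.16 and 4.45.

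**Figure D1:**
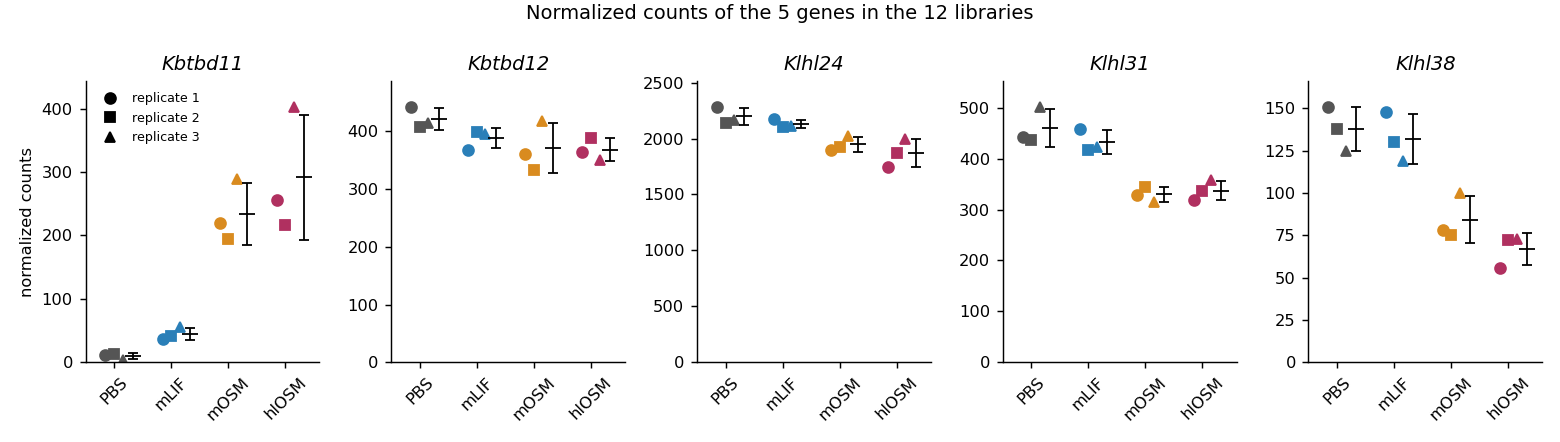
Normalized counts (y axis, linear, from 0) of the 5 genes in each of the 12 libraries, by condition (x axis). Symbols mark the replicate number, and the horizontal mark with bars is the mean ± SD of 3 libraries. Kbtbd11 climbs from 4 to 13 in PBS to 216 to 403 with hlOSM, while Klhl31 and Klhl38 are lower with both OSM forms than with PBS or mLIF.

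The direct comparisons between cytokines use no PBS library, although they share cytokine libraries with the comparisons behind the choice of Kbtbd11. They were tested with limma over all 13184 genes, two-sided, with Benjamini-Hochberg adjustment. Kbtbd11 was higher with mOSM than with mLIF by 2.36 on the log2 scale (95% interval 1.80 to 2.91, adjusted p = 1.75e-06), or 5.12-fold. It was higher with hlOSM than with mLIF by 2.64 (2.08 to 3.20, adjusted p = 2.42e-07), or 6.23-fold. Between hlOSM and mOSM the difference was 0.28 with an interval of -0.27 to 0.84 (adjusted p = 0.881), so a difference of up to 1.79-fold in favour of hlOSM was within the error.

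Were the LIF and OSM responses to add on the log2 scale, hlOSM would stand above PBS by the sum of both. The hlOSM response of Kbtbd11 was lower than that sum on this scale, with a log2 difference of -1.98 (SE 0.38). The low PBS values set part of the size: it was -1.52 without PBS replicate 3 and -1.57 with a pseudocount of 5. Addition on the scale of the counts themselves was not tested. A departure from the sum passed the adjusted threshold for 0.167% of all genes. The value of Kbtbd11 contains the mLIF response that the choice of the gene rests on and is given without a test, as a description.

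Marker sums of other cell types moved beside the rise of Kbtbd11. The summed endothelial markers with mLIF, mOSM and hlOSM were 0.991, 1.29 and 1.25 times their PBS level, the macrophage markers 0.996, 1.2 and 1.17 times, and the fibroblast markers 0.922, 1.12 and 1.07 times. Within these sums single markers went opposite ways: from PBS to mOSM the mean of Col3a1 went from 399 to 850 and that of Dcn from 222 to 474, whereas Col1a2 went from 485 to 260 and Pdgfra from 613 to 428, and in the macrophage list Cd68 went from 53.7 to 125 and Lyz2 from 176 to 156. The part of these shifts in the rise was not tested.

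Of the exonic bases of Kbtbd11, 24.8% are also covered on the other strand by the transcript Gm37844, for which no value was used here. How the counting treated strand is not stated, so reads of these overlapping genes cannot be assigned with certainty.

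Klhl31 (ENSMUSG00000044938, chr9:77636500-77660127, plus strand) is a muscle protein whose known target is filamin C, and its loss in mice causes myopathy. The PBS libraries held 442, 436 and 502 normalized counts and the mLIF libraries 459, 416 and 422. With mOSM the values were 329, 345 and 315, and with hlOSM 319, 336 and 357.

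PBS and mLIF overlapped, and every library of either OSM form was below every library without it. Set against PBS, Klhl31 differed by -0.09 (mLIF), -0.48 (mOSM) and -0.44 (hlOSM) on the log2 scale, each with an SE of 0.07. In the tests that leave PBS out, Klhl31 was lower with mOSM than with mLIF (log2 difference -0.39, 95% interval -0.53 to -0.25, adjusted p = 0.000326, limma) and lower with hlOSM than with mLIF (-0.36, interval -0.50 to -0.22, adjusted p = 0.000613). The hlOSM and mOSM libraries differed by 0.03 (-0.11 to 0.17, adjusted p = 0.955).

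Klhl38 (ENSMUSG00000022357, chr15:58314573-58324169, minus strand) is known from skeletal muscle, where its transcript responds to wasting. It measured 151, 138 and 125 normalized counts in PBS and 148, 130 and 119 with mLIF. The mOSM libraries gave 78, 75 and 100, and the hlOSM libraries 56, 72 and 73.

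The mLIF values overlapped those in PBS, the mOSM values were all below it, and the hlOSM values were all below those with mOSM. Relative to PBS the log2 differences were -0.06, -0.71 and -1.04 (SE 0.12), which is 0.958, 0.611 and 0.487 of the PBS level. Compared with mLIF, Klhl38 was lower with mOSM (log2 difference -0.65, 95% interval -0.91 to -0.39, adjusted p = 0.000861, limma) and with hlOSM (-0.98, interval -1.23 to -0.72, adjusted p = 5.74e-06). For hlOSM against mOSM the difference was -0.33 (-0.58 to -0.07). Its unadjusted p was 0.0153 and its adjusted p 0.519, and groups without overlap occurred for 9.74% of all genes in this comparison. The antisense transcript Gm15943 covers 65.4% of the exonic bases of Klhl38 and was listed at 1 to 5 in every library, against 56 to 151 for Klhl38. Reads that fit several genes were left out and the strand setting is not stated. The low value of Gm15943 therefore does not show whether reads of Klhl38 were lost there. The same limit holds for the overlaps of Klhl40 and Keap1 below.

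Klhl24 (ENSMUSG00000062901, chr16:20097542-20129221, plus strand) directs the turnover of keratin and desmin intermediate filaments, and mutations that stabilise or abolish it are known in skin fragility and cardiomyopathy. It was the most abundant of the 5 genes, with 2285, 2141 and 2169 normalized counts in PBS and 2174, 2103 and 2110 with mLIF. The mOSM libraries held 1895, 1925 and 2020 and the hlOSM libraries 1744, 1872 and 1995.

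The shift was small beside that of Klhl38 but the OSM libraries stood apart from those with PBS or mLIF. The differences from PBS were -0.05, -0.18 and -0.23 (log2, SE 0.05). Under quantile normalization the first was 0.02 and the second -0.10. Against mLIF, Klhl24 was lower with hlOSM (log2 difference -0.19, 95% interval -0.30 to -0.08, adjusted p = 0.0144, limma), a call that was lost without mLIF replicate 1 (-0.17, adjusted p = 0.0658) or hlOSM replicate 1 (-0.14, adjusted p = 0.101). The difference between mOSM and mLIF was -0.13 (adjusted p = 0.119) and that between hlOSM and mOSM -0.06 (-0.17 to 0.05, adjusted p = 0.866).

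Kbtbd12 (ENSMUSG00000033182, chr6:88545114-88637950, minus strand) moved little. The PBS libraries held 443, 408 and 414 normalized counts, those with mLIF 368, 399 and 396, those with mOSM 361, 333 and 418, and those with hlOSM 364, 389 and 350. All mLIF and hlOSM values were below the lowest PBS value, whereas mOSM replicate 3 was within the PBS range. The log2 differences from PBS were -0.12, -0.19 and -0.20 (SE 0.07). Between cytokines none of the 3 limma tests passed the threshold, with differences of -0.07 (mOSM against mLIF, adjusted p = 0.62), -0.08 (hlOSM against mLIF, adjusted p = 0.549) and -0.01 (hlOSM against mOSM, interval -0.16 to 0.14, adjusted p = 0.993).

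Promoter sequence was at hand in the RefSeq table (GRCm38.p6) for 2 of the 5 genes, Kbtbd12 and Klhl31. Of the bases taken before the RefSeq start, 231 come before annotated exon for Kbtbd12 and 18 for Klhl31. Only the longer stretch, that of Kbtbd12, is printed. It covers chr6:88627449-88627679, read on the minus strand. The annotated gene extends farther upstream, to 88637950, so the stretch lies within the span of the gene but outside its annotated exons. Capitals mark a match to the E-box letters CANNTG, bound by MyoD-type and other bHLH factors, and a match to CTANNNNTAG, the outer letters of the MEF2 box.

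Kbtbd12 promoter: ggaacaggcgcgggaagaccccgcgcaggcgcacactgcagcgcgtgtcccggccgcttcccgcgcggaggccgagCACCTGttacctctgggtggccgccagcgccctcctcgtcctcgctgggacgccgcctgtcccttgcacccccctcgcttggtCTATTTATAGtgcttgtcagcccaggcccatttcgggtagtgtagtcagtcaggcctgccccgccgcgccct

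The 231 bases have a GC content of 69.7%. CACCTG begins 174 bases before the RefSeq start, and CTATTTATAG begins 91 bases before it. All motifs searched read the same on both strands. In windows of 250 bases before the start, CANNTG occurred in 66.2% of 32851 promoters and CTANNNNTAG in 3.2%. CTANNNNTAG with 4 central letters that are all A or T, as in Kbtbd12, occurred in 0.508%. The window of Klhl31 held neither. Only its first 18 bases precede the annotated gene, so the sequence upstream of that gene was hardly searched. TTCNNNGAA, the letters bound by STAT factors, the transcription factors that act below gp130, was in 7.02% of all promoters and in neither of these windows. Such matches describe the letters of the window and not the binding of a factor.

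The 5 genes split into a single member that was higher with the cytokines and 4 that were lower or near the PBS level. All 5 passed the filter on low values, Kbtbd11 only through the cytokine libraries. Against PBS, at an adjusted p under 0.05, 1 of 5 members was higher with mLIF, where 5.47% of all genes tested passed as higher, and 0 were lower (background 4.44%). With mOSM 1 was higher (background 15.4%) and 3 were lower (15.8%). With hlOSM 1 was higher (background 18.2%) and 4 were lower (19.8%). The choice of members used these comparisons, and nothing is read from the counts.

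The comparisons between cytokines share cytokine libraries with those behind the choice, so these counts too are descriptions. In mOSM against mLIF 1 member was higher (background 6.05%) and 2 were lower (5.76%), with 11.8% of all genes past the threshold in either direction. In hlOSM against mLIF 1 was higher (background 7.42%) and 3 were lower (9.22%), with 16.6% in either direction. In hlOSM against mOSM limma called none of the 5, with 1 at an unadjusted p under 0.05, and 14 of 13184 genes passed the adjusted threshold (0.106%). Groups without overlap were found for 4 of the 5 members in mOSM against mLIF (background 27.1%), 4 in hlOSM against mLIF (31.7%) and 1 in hlOSM against mOSM (9.74%). Against PBS there were 2 with mLIF (background 30.3%), 4 with mOSM (40.1%) and 5 with hlOSM (47.0%).

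**Figure D2:**
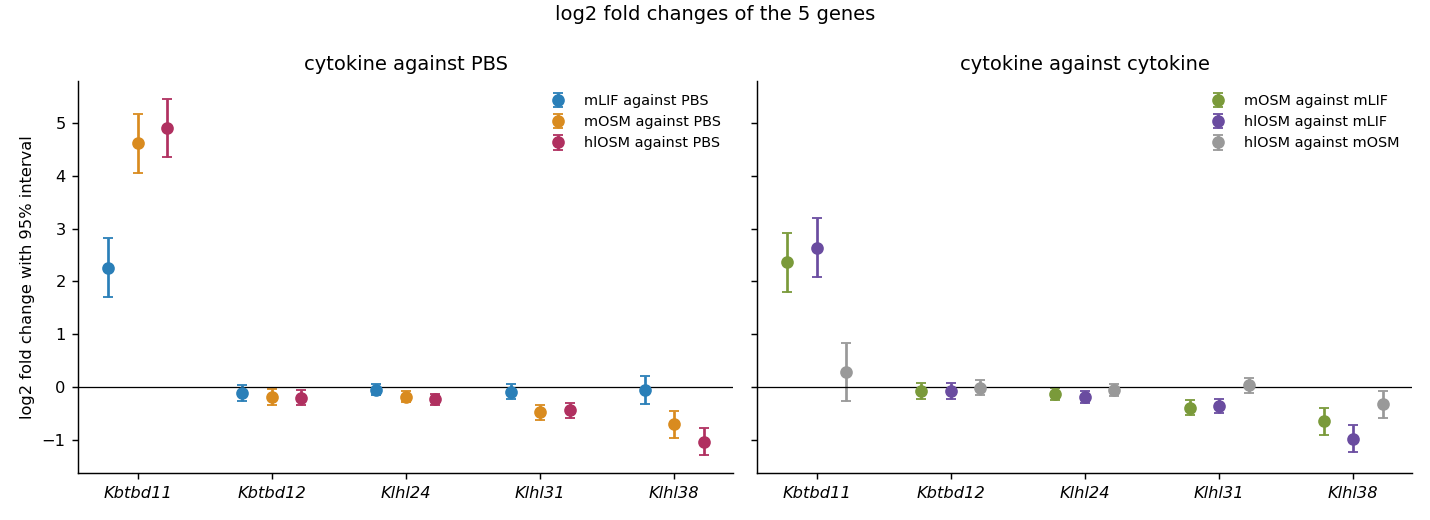
log2 fold changes (y axis) of the 5 genes (x axis) for each cytokine against PBS (left) and for the direct comparisons between cytokines (right). Points are limma estimates and bars 95% intervals. Kbtbd11 lies between 2.26 and 4.90 against PBS, and the other 4 genes between -1.04 and -0.05.

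The cardiomyocyte marker sum was also lower with the cytokines, at 0.86, 0.786 and 0.772 times its PBS level with mLIF, mOSM and hlOSM, and the mural cell sum at 0.878, 0.657 and 0.586 times. The ratios of means to PBS were 0.94, 0.717 and 0.733 for Klhl31, 0.959, 0.611 and 0.486 for Klhl38, 0.968, 0.886 and 0.851 for Klhl24 and 0.919, 0.879 and 0.872 for Kbtbd12. Klhl31 and Klhl38 stayed nearer to the PBS level than the marker sum with mLIF and were below that sum with both OSM forms, whereas Klhl24 and Kbtbd12 stayed above it with all 3 cytokines. The part of the marker shift in the falls was not tested.

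Per kilobase of annotated exon, which allows levels of different genes to be set side by side, Klhl24 was the highest of the 5 in every condition, at 216 normalized counts per kb in PBS, 209 with mLIF, 191 with mOSM and 184 with hlOSM. In PBS it was followed by Klhl31 (70.8), Klhl38 (62.4), Kbtbd12 (44.9) and Kbtbd11 (1.31), with Klhl31 and Klhl38 overlapping between libraries. The order with mLIF was the same, and Kbtbd11 stood at 6.31 per kb. With mOSM Kbtbd11 reached 32.8 per kb, next to Klhl38 (38.1) and Kbtbd12 (39.5), and both neighbouring pairs overlapped. With hlOSM its level of 40.9 per kb overlapped those of Klhl31 (51.9), Kbtbd12 (39.2) and Klhl38, which had the lowest mean of the 5 at 30.3.

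**Figure D3:**
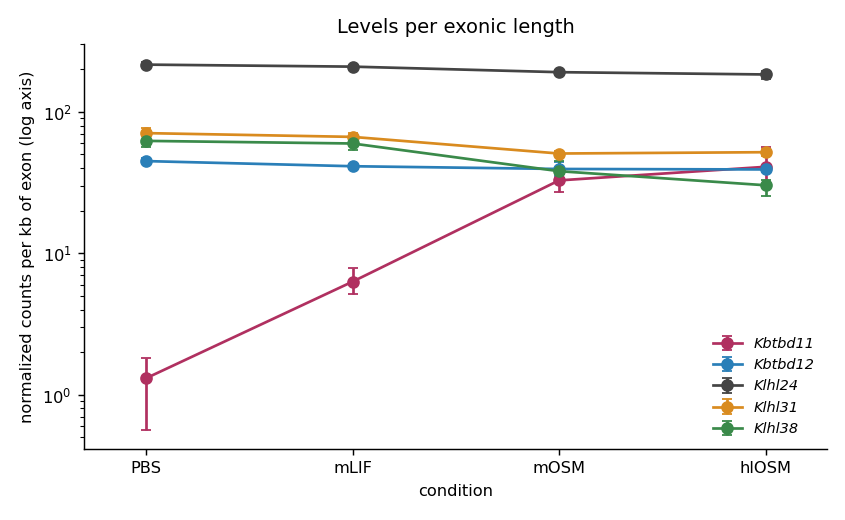
Mean normalized counts per kb of exon (y axis, log axis) of the 5 genes in the 4 conditions (x axis), with bars from the lowest to the highest of 3 libraries. Kbtbd11 runs from 1.31 per kb in PBS to 40.9 with hlOSM, within the range of Kbtbd12, while Klhl24 stays above the other 4 throughout.

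Across the 12 libraries the Pearson correlation of log2 values between Kbtbd11 and the other members was -0.640 for Kbtbd12, -0.795 for Klhl24, -0.926 for Klhl31 and -0.821 for Klhl38. Among those 4 it ranged from 0.466 (Kbtbd12 and Klhl31) to 0.955 (Klhl24 and Klhl38). These values are descriptions over libraries that share 4 conditions and their scaling.

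Among 8670 genes with a mean of at least 50, the pattern most like that of Kbtbd11 over the 12 libraries was that of Thbd (r = 0.997), which encodes thrombomodulin, the anticoagulant thrombin receptor. Its mean level was 96.3 normalized counts in PBS, 256 with mLIF, 749 with mOSM and 901 with hlOSM. Acsl5, an acyl-CoA synthetase, and Odc1, the enzyme that opens polyamine synthesis, followed with r = 0.995 each. Odc1 went from 203 in PBS to 272, 386 and 424.

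For Klhl31 the nearest genes were Crim1 (r = 0.986), Tmem117 (0.984) and Esrrg (0.982), a nuclear receptor of oxidative metabolism that stood at 169, 141, 87 and 89.3 in PBS, mLIF, mOSM and hlOSM. Genes with a pattern like that of Klhl38 included Tbx5, a transcription factor of heart development (r = 0.976, with means of 259, 242, 202 and 177), and Mxra8 (0.976). For Klhl24 they included Fuca2 (0.964) and Prrx1 (0.959). Kbtbd12 was nearest to Polk (0.961), Stard7 (0.946) and Kdm5a (0.943).

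To place the 5 genes in their family, the other 43 BTB-Kelch genes of the table were counted, of which 39 passed the filter. With mLIF 4 were higher and 1 lower than in PBS, with mOSM 9 and 8, and with hlOSM 7 and 11. The median log2 differences were -0.02, 0.02 and -0.07, beside 0.00, -0.00 and -0.01 over all genes tested. Shares of the list past the threshold were 12.8%, 43.6% and 46.2%, where the backgrounds were 9.91%, 31.2% and 37.9%. The mLIF count was 3 in place of 5 without mLIF replicate 3. In hlOSM against mLIF 7 of 39 passed (17.9%, background 16.6%), and 3 without mLIF replicate 1.

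Of these 39 family members, 5 were called in the same direction with all 3 cytokines, as were 8.27% of all genes tested. Among the 5, Kbtbd13 passed the filter on low values only through the cytokine groups, and its mLIF call depended on single libraries, as given below. The 3 comparisons share their PBS libraries. Klhl33, the single one of them that fell, measured 184, 207 and 225 normalized counts in PBS, then 138, 144 and 135 under mLIF, 89, 80 and 90 under mOSM, and 68, 63 and 63 under hlOSM. No library of 1 condition overlapped with another, and the log2 differences from PBS were -0.56, -1.24 and -1.65 (SE 0.09, adjusted p = 0.000585, 1.08e-09 and 6.41e-12). The step from mOSM to hlOSM was -0.41 (adjusted p = 0.11).

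The 4 that rose were Klhl6, Kbtbd13, Klhl40 and Klhl41. Klhl6, known from B cells and endothelium, went from a mean of 162 ± 37.8 in PBS to 235 ± 25.1 with mLIF, 348 ± 48.2 with mOSM and 342 ± 27.8 with hlOSM (log2 differences 0.56, 1.12 and 1.10, adjusted p = 0.00662, 4.22e-07 and 4.07e-07). Its ratios to PBS of 1.46, 2.15 and 2.12 stand beside 0.991, 1.29 and 1.25 for the endothelial marker sum. The mLIF call was lost without mLIF replicate 3 (0.48, adjusted p = 0.0582).

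The remaining 3 are genes of nemaline myopathy. Klhl40, which stabilises nebulin and leiomodin 3, rose by 0.51, 0.63 and 0.83 (SE 0.11, adjusted p = 0.00368, 7.8e-05 and 1.78e-06) from 93, 96 and 74 normalized counts in PBS to 161, 145 and 162 with hlOSM. Gm47108 covers 21.6% of its exonic bases on the other strand and was listed at 0 to 3. Klhl41, a partner of nebulin and NRAP, rose by 0.40, 0.34 and 0.42 (SE 0.07, adjusted p = 0.00139, 0.00109 and 9.63e-05). Kbtbd13 was low, at 5 to 8 in PBS and 10 to 25 with the cytokines, and it passed the filter on low values through the cytokine groups alone. In a fit with no filter its differences were 0.97, 1.46 and 1.46 (adjusted p = 0.0429, 0.000424 and 0.00034). With the filter its mLIF call was lost when any 1 of PBS replicates 2 and 3 and mLIF replicates 2 and 3 was left out (0.83 to 0.94, adjusted p = 0.0528 to 0.099).

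Klhl30 fell by 0.18 with hlOSM (adjusted p = 0.0476), a call lost without PBS replicate 1 or 3 or hlOSM replicate 1 or 2, and its differences with mLIF and mOSM were -0.02 and -0.16. Keap1, the adaptor that holds NRF2 down, fell with mOSM (log2 difference -0.22, adjusted p = 0.0109, and 0.0534 without mOSM replicate 2) and with hlOSM (-0.30, adjusted p = 0.000659). Its difference with mLIF was -0.16 (adjusted p = 0.117). The antisense transcript Gm16754 shares 10.9% of the exonic bases of Keap1 and was listed at 1 to 6.

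**Figure D4:**
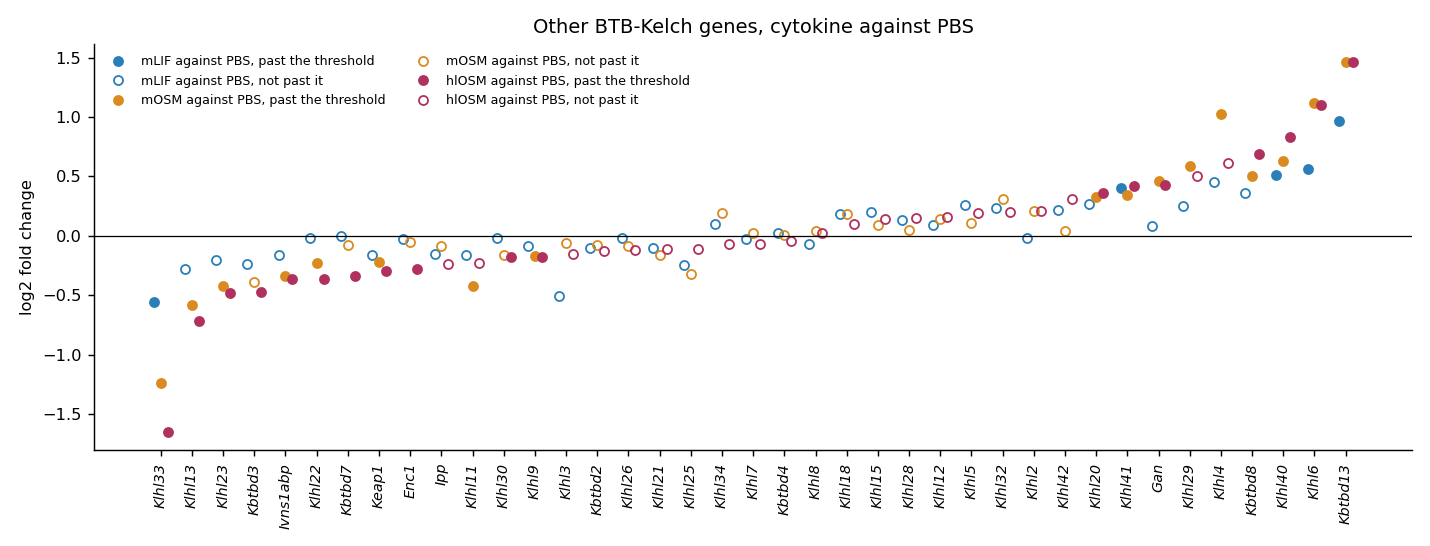
log2 fold changes against PBS (y axis) of the 39 other BTB-Kelch genes tested (x axis, in the order of the hlOSM value), with 1 point for each cytokine. Filled points passed an adjusted p under 0.05. Klhl33 is lowest at -1.65 with hlOSM and Kbtbd13 highest at 1.46, and most of the genes between them are within 0.5 of no change.

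The ligase core that all these adaptors share was counted in the same way. Of 19 genes for CUL3, its RING partner, the neddylation enzymes, the CAND exchange factors and the COP9 signalosome, all 19 were tested. With mLIF 1 was higher and 1 lower than in PBS, with mOSM 1 and 2 and with hlOSM 2 and 2, which is 10.5%, 15.8% and 21.1% of the list beside 9.91%, 31.2% and 37.9% of all genes. The medians were -0.00, 0.04 and 0.01.

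Cul3 itself stood at 1127 ± 17.7 normalized counts in PBS and fell with mOSM (log2 difference -0.18, adjusted p = 0.0138) and with hlOSM (-0.15, adjusted p = 0.0327). The hlOSM call was lost without any 1 of the 6 libraries compared, and the mOSM call without PBS replicate 1 or mOSM replicate 1 or 2 (adjusted p = 0.0532 to 0.102 over these). Rbx1, the RING subunit, differed by -0.03, 0.07 and 0.03, none past the threshold.

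Dcun1d4, which helps to attach NEDD8 to cullins, rose by 0.60, 0.52 and 0.57 (SE 0.10, adjusted p = 0.000748, 0.00046 and 0.000134). Cand2, the CAND form of striated muscle, fell with all 3 cytokines (log2 differences -0.26, -0.45 and -0.71, SE 0.06, adjusted p = 0.0126, 1e-05 and 1.1e-08), from 457, 469 and 497 in PBS to 282, 299 and 288 with hlOSM. It was lower with hlOSM than with mLIF (-0.45, adjusted p = 2.01e-05). Its mLIF call was lost without PBS replicate 3 or mLIF replicate 1 or 3 (-0.25 to -0.22, adjusted p = 0.051 to 0.0708).

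Of the genes for sarcomere and filament proteins that muscle Kelch adaptors are known to bind, 5 were tested. With mLIF, mOSM and hlOSM 0, 3 and 3 passed, where 9.91%, 31.2% and 37.9% of all genes did. Only transcripts were measured, so the levels of these proteins are unknown. Neb (nebulin) fell with mOSM and hlOSM (log2 differences -0.72 and -0.65, SE 0.10, adjusted p = 5.31e-06 and 1.42e-05), from 196, 221 and 204 in PBS to 136, 105 and 138 and to 131, 142 and 122. With mLIF it measured 196, 206 and 223, a difference of 0.01. Lmod3 (leiomodin 3) fell too (-0.71 and -0.50, adjusted p = 1.17e-05 and 0.000472), and its mLIF difference was -0.25 (adjusted p = 0.113, and 0.0368 without PBS replicate 1).

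The transcript of Flnc, which encodes the known target of KLHL31, rose by 0.16 with mOSM and 0.14 with hlOSM (SE 0.05, adjusted p = 0.0225 and 0.0373). These calls were lost without PBS replicate 3 (0.13 and 0.11, adjusted p = 0.132 and 0.183), the mOSM call also without mOSM replicate 3, and the hlOSM call also without PBS replicate 2 or any hlOSM replicate. Nrap and Des (desmin) gave differences of -0.08 to -0.03, none of which passed. Without mOSM replicate 3 both passed with mOSM, at -0.14 (adjusted p = 0.00704) and -0.16 (adjusted p = 0.0199).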

How the data were processed

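RNA was taken from 12 cultures of mouse cardiomyocytes (4 conditions, 3 libraries each). Per the labels and methods, the authors used a stranded total RNA kit, aligned reads to mm10 with STAR 2.7.7a and counted them on genes with featureCounts 1.6.5, leaving out reads that fit several places or genes. The strand setting of the counting is not given in the sources used here. The dose printed is that of the labels, and the study's methods state another. The deposited values are treated as a score: counts that the authors normalized by a method the table does not name and rounded to whole numbers. No count model was used for that reason. The study's methods state an average number of reads per library, and the depth of each library is not given.

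Genes with at least 10 in at least 3 libraries (13184) were fitted on log2(value + 1), which understates the change of low genes, with limma 3.58.1 (trend) in R 4.3.3 over all 12 libraries. Tests were two-sided with Benjamini-Hochberg adjustment over all genes and a threshold of 0.05. The fit was tested on simulated data. Of the table's IDs, 22876 were found in the GENCODE annotation of GRCm38 (mm10), which gave exon lengths and overlaps.

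The named genes were the members, overlapping genes, fixed BTB-Kelch, CUL3 and partner genes, list genes called alike with all 3 cytokines, and the 3 genes most correlated with each member, of which 1 gene is not reported here. The members and lists were chosen with earlier results of these data known. Krt14 of the partner list was not analysed here, and Klhl36, Kbtbd6, Klhl10 and Klhl35, at most 9 in any library, were not tested. Alternatives were other pseudocounts, filters and scalings, fits on the compared libraries, a replicate block and leaving out each library.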

Additional observations from a re-analysis of the deposited data

How the results depend on the processing

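Results were recomputed with pseudocounts of 0.1 and 5, no filter or a filter at 50, median-of-ratios rescaling (factors 0.986 to 1.04), quantile normalization, fits on only the libraries compared, a replicate block and each library left out. The member count past the threshold for the departure of hlOSM from the summed mLIF and mOSM responses was 1, from which nothing is read since the choice of genes used it, and 0 with no filter, with median-of-ratios rescaling and with quantile normalization. Leaving out 1 library it was 0 to 1, and for the other BTB-Kelch genes 0 to 1 in place of 0. The count of other BTB-Kelch genes was 3 to 6 for mLIF against PBS (main 5) and 3 to 8 for hlOSM against mLIF (main 7). No other count of members or of other BTB-Kelch genes moved by over 1.5 times. With a pseudocount of 5 the differences of Kbtbd11 from PBS were 1.85, 4.10 and 4.38, as the added value alone shrinks low levels. Among differences near 0, leaving out 1 library gave for Kbtbd12 -0.16 to 0.00 (mOSM against mLIF) and -0.08 to 0.08 (hlOSM against mOSM), for Klhl31 -0.01 to 0.07 (hlOSM against mOSM), for Klhl30 -0.08 to 0.01, Neb -0.04 to 0.06, Flnc -0.01 to 0.06 and Rbx1 -0.10 to 0.03 (mLIF against PBS), for Rbx1 -0.01 to 0.07 (hlOSM against PBS) and for Des -0.16 to 0.00 (mOSM against PBS). Quantile normalization gave Klhl24 0.02 (mLIF) and -0.10 (mOSM) against PBS in place of -0.05 and -0.18, turned Nrap to 0.01 with mOSM and 0.03 with hlOSM and Des to 0.01 and 0.04, and put Klhl24 past the threshold for mOSM against mLIF (-0.12, adjusted p = 0.0185). Same-numbered libraries deviated in opposite directions (correlations -0.406 to -0.151 over 18 pairs, against 0.00438 to 0.328 for different numbers), and the replicate number accounted for 1.7% of the within-condition variance, against 25% for a number with no effect. The averages of the replicate numbers differed by an SD of 0.00175 to 0.00192 over 6626 genes. The share of 1.7% is far below that of a number with no effect, and how this arose is not stated and was not tested. Whether the libraries were paired cannot be seen from these values. With the replicate block the calls over all genes for mLIF against PBS were 784 in place of 1307, for hlOSM against mOSM 2 in place of 14, and Kbtbd11 kept 2.36 for mOSM against mLIF (adjusted p = 7.97e-07). The members past the threshold with hlOSM against PBS were 4 in place of 5, and the calls of Kbtbd13 with mLIF (adjusted p = 0.066) and of Klhl30 (0.0965), Cul3 (0.0565) and Flnc (0.0541) with hlOSM were lost. Without 1 library the calls over all genes were 502 (without mLIF replicate 3) to 1177 for mLIF against PBS, 1 to 10 for hlOSM against mOSM and 5 to 154 for the departure from the sum. Under the other settings, counts over all genes that moved by over 1.5 times were, for hlOSM against mOSM, 6 with no filter, 7 with median-of-ratios rescaling and 0 with only the libraries compared. For the departure from the sum they were 11 with no filter, 13 rescaled, 14 with quantile normalization and 14 with the replicate block, in place of 22. The causes were not tested. The read depth of each library is not given. Whether lower genes such as Kbtbd13, or Kbtbd11 in PBS, are limited by depth was not tested.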
